A study of Homo sapiens with 9 samples.

Results

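10 genes that set the pace of the G1 phase of the cell cycle were followed across HEK293 cells expressing wild-type or mutant MEK1. They were the D-type cyclins CCND1, CCND2 and CCND3, the transcription factors MYC and E2F1, the CIP/KIP inhibitors CDKN1A, CDKN1B and CDKN1C, and the INK4 inhibitors CDKN2B and CDKN2C. All 10 members were found by the gene name that the array gives to its probes, out of 36334 names. They were measured by 12 of the 50598 probes on the array, and 11 of these were bright enough to be tested. HEK293 is a human embryonic kidney cell line. The cells stably carried an HA-tagged MEK1, either WT, F53S or K57N, on a transfected pQCXIP plasmid after puromycin selection, with 1 line for each form and 3 arrays for each line. F53S is a MEK1 mutation of RASopathies, K57N a MEK1 mutation of cancer, and MEK1, the product of MAP2K1, is the kinase that activates ERK. The titles of all samples give HEK293, while the source labels of WT replicates 2 and 3 read HEK294 and HEK295, and these arrays were used as titled. RNA was taken from cells growing in serum at steady state, without a pulse of growth factor. Since each form was carried by 1 line, the mutation and other differences between lines cannot be told apart, and p-values measure the spread between these experiments. HEK293 cells also carry the adenovirus proteins E1A, which binds the RB family, and E1B, which binds p53, so the control that several of these genes exert or answer to is altered in every line.

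In G1, D-type cyclins bind CDK4 and CDK6 and phosphorylate RB proteins, which frees E2F factors to switch on S phase genes. INK4 proteins block CDK4 and CDK6 directly, whereas CIP/KIP proteins act mainly on complexes of CDK2 and also bind cyclin D complexes. ERK signaling is known to raise CCND1 and MYC and, when strong, CDKN1A, which makes these genes common readouts of the pathway.

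Of the 10 genes, 6 had a promoter entry in the RefSeq table used here (GRCh38.p14): CCND3, E2F1, CDKN1A, CDKN1B, CDKN2B and CDKN2C. CCND1, CCND2, MYC and CDKN1C had none. The 250 bases before the start are shown for CDKN1B and CDKN2C, the inhibitors that were lower in K57N (below), and for E2F1, the only one of the 6 with the motif of its own family. CDKN2C has several starts, and the distal one and the GC-rich one are shown. Capitals mark matches, on either strand, to AP-1 (TGANTCA), E-box (CACGTG), E2F (TTTNNCGC), ETS (CCGGAAGT), Sp1 (GGGCGG) or CRE (TGACGTCA), and all sequences run 5′ to 3′ on the strand of the gene.
CDKN1B, chr12:12717118-12717367, plus strand: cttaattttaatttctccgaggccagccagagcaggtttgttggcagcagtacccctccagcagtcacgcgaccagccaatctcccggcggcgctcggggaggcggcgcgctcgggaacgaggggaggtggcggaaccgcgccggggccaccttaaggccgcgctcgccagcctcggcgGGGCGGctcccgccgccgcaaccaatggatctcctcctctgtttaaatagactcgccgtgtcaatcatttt
CDKN2C distal start, chr1:50960495-50960744, plus strand: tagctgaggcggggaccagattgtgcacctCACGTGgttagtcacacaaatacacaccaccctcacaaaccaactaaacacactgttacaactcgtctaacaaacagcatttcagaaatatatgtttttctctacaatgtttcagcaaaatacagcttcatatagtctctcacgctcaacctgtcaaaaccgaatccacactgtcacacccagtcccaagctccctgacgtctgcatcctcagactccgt
CDKN2C GC-rich start, chr1:50968456-50968705, plus strand: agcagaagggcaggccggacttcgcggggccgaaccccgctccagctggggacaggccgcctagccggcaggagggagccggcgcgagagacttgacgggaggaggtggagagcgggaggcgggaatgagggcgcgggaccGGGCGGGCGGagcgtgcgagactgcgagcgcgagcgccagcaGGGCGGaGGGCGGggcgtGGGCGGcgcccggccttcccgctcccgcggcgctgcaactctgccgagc
E2F1, chr20:33686386-33686635, minus strand: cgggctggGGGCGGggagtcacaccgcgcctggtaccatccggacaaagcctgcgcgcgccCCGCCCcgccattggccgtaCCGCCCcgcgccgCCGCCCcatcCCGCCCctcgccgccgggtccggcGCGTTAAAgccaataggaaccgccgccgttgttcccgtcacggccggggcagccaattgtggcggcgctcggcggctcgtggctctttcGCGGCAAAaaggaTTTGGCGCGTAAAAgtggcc

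The Sp1 motif was present before at least 1 start of all 6 genes, while a further start of CCND3 and the distal start of CDKN2C lacked it. Counted per window and not per gene, 42.6% of the 35116 promoter windows of the table held it. GC content was 45.6% to 77.2% in the windows of the 6 genes, against a median of 58% over all promoters. The E2F motif was found in E2F1 only, with 4 matches, of which a neighboring pair share letters, and 5.92% of all windows held it. The E-box was found in CDKN2C only, at the distal start shown and at a further start, against 6.34% of all windows. No window of the 6 genes held AP-1, ETS or CRE, which 6.57%, 3.42% and 1.65% of all windows held. These are matches of letters and not measured binding sites.

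Values are log2 signals relative to the 75th percentile of the same array, so 0 is a signal at that percentile. Each gene was read by the probe with the highest mean signal. Replicate 1 of every line was hybridized on slide 1, and replicates 2 and 3 on slide 2. The 75th percentile of the raw signal was between 245 and 376 on slide 1 and between 695 and 821 on slide 2, and between 23726 and 29356 probes per array were well above background. The slide separated many genes: 69.1% of the 25409 probes tested, and 6 of the 10 members, differed between slides with the line held. Differences between lines were therefore tested with limma both without a slide term, as the study's methods name none, and with one. A gene passed where the adjusted p was under 0.05, and it was called where the difference was also over 2-fold. As checks of identity, 6 of 8 HEK293 markers were well above background on all 9 arrays, with NEFM and INA on fewer. Of 17 markers of melanocytic, intestinal, fibroblast and blood cells, 7 were above background on all arrays and 3 (MLANA, CDH17 and DCN) on none. In such bulk RNA, fewer cells of a type and less RNA per cell cannot be told apart. The probe for MAP2K1 lies at base 1927 of its transcript and may be outside the transfected construct, so its level, 0.48 higher in K57N than in WT, checks no label.

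**Figure D1:**
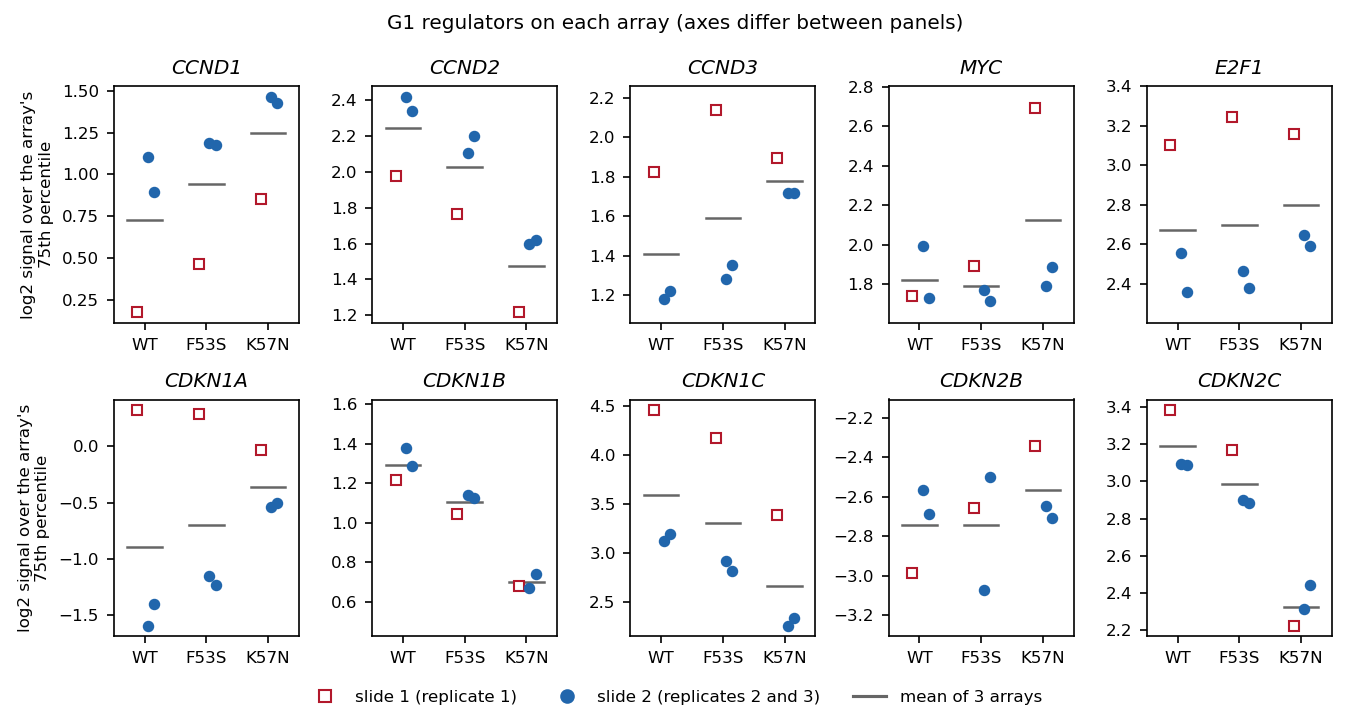
Log2 signal of each G1 regulator over its array's 75th percentile (vertical axis, scaled separately in each panel) in WT, F53S and K57N cells, with slide 1 as open squares, slide 2 as filled circles and lines at the mean of 3 arrays. CCND2, CDKN1B and CDKN2C were lower on all 3 K57N arrays than on any WT array, and CDKN1C and CCND1 showed the same order of lines on each slide.

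With the slide term CCND1 was higher and CCND2 lower in K57N cells than in WT, and CCND3 did not pass. Without it none of the 3 D-type cyclins passed. CCND1, the cyclin most closely tied to ERK signaling (probe at hg19 chr11:69468233-69468292), read 0.17, 1.10 and 0.90 on the 3 WT arrays, 0.46, 1.19 and 1.17 in F53S and 0.85, 1.46 and 1.42 in K57N. The first value of each line is the array on slide 1, and it was the lowest in all 3 lines, so that the groups overlapped. Within each slide, every K57N array was above every WT array. The difference between K57N and WT was 0.52 ± 0.32 (log2, SE, n = 3 per line), or 1.44-fold, with an adjusted p of 0.604 in limma without a slide term. With the slide term the same difference had an SE of 0.10 and an adjusted p of 0.00956, and CCND1 passed as higher in K57N, a pass that was lost with median scaling and with no filter on dim probes. Without WT replicate 1 the difference was 0.25 with no slide term, and with the term it lay between 0.46 and 0.60 over the limma settings.

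CCND2, a D-type cyclin that like CCND1 activates CDK4 and CDK6 (probe at hg19 chr12:4414040-4414099), read 1.97, 2.42 and 2.34 in WT, 1.77, 2.11 and 2.20 in F53S and 1.22, 1.59 and 1.62 in K57N. All K57N arrays lay below all WT and all F53S arrays. The log2 difference between K57N and WT was -0.77 ± 0.21 (SE, n = 3 per line), a 1.70-fold lower level. The adjusted p was 0.112 without the slide term and 0.00083 with it, so CCND2 fell in K57N in the second test only.

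CCND3, the third D-type cyclin (probe at hg19 chr6:41903193-41903252), read 1.83, 1.18 and 1.22 in WT, 2.14, 1.28 and 1.35 in F53S and 1.90, 1.72 and 1.72 in K57N. On slide 1 the F53S array was the highest, whereas on slide 2 both K57N arrays were above the other 4. K57N differed from WT by 0.37 ± 0.27 (log2, SE), with limma's adjusted p of 0.725 without and 0.101 with the slide term. Within slide 2 alone, with 2 arrays per line, the difference was 0.52 with an adjusted p of 0.00811.

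The transcription factors did not pass in either test. MYC, which drives genes of growth and ribosome production, read 1.74, 1.99 and 1.73 in WT, 1.89, 1.77 and 1.72 in F53S and 2.69, 1.79 and 1.89 in K57N. The K57N array on slide 1 stood apart, while the other 8 arrays lay between 1.72 and 1.99. That array carried 10 repeat spots of the probe with an SD of 0.08 among them, so the high reading was shared by the spots. K57N differed from WT by 0.30 ± 0.25 (log2, SE), with limma's adjusted p of 0.766 without and 0.321 with the slide term. The difference was 0.95 on slide 1, where each line had 1 array and no test was possible, and -0.02 on slide 2. A further MYC probe stayed near background throughout the 9 arrays and was not tested.

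E2F1, the activator of S phase genes released from RB (probe at hg19 chr20:32263989-32264048), read 3.10, 2.56 and 2.36 in WT, 3.24, 2.46 and 2.38 in F53S and 3.16, 2.65 and 2.59 in K57N. The lines overlapped, and the array on slide 1 was the highest of each. The difference between K57N and WT was 0.12 ± 0.30 without the slide term and 0.12 ± 0.10 with it (log2, SE), with limma's adjusted p of 0.978 and 0.425. The 95% interval with the slide term ran from -0.11 to 0.36.

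Among the CIP/KIP inhibitors, CDKN1B and CDKN1C were lower in K57N, while CDKN1A differed between slides. CDKN1B encodes p27, the inhibitor of cyclin E and CDK2 that holds cells in G1. It read 1.21, 1.38 and 1.29 in WT, 1.05, 1.14 and 1.13 in F53S and 0.68, 0.67 and 0.74 in K57N (probe at hg19 chr12:12874940-12874999). The lines did not overlap, with F53S between WT and K57N. The log2 difference between K57N and WT was -0.60 ± 0.14 (SE, n = 3 per line), a 1.51-fold lower level. The adjusted p in limma was 0.065 without the slide term and 0.00277 with it. The second CDKN1B probe, at hg19 chr12:12871119-12871178, read 0.64, 0.65 and 0.66 in WT, 0.81, 0.59 and 0.43 in F53S and -0.05, 0.03 and 0.08 in K57N. It gave a difference from WT of -0.63 ± 0.15 with adjusted p of 0.0806 and 0.00818, so both probes passed with the slide term. Of the 2, only the first placed F53S below WT on every array, and the second overlapped.

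CDKN1C, which encodes p57, an inhibitor of the same family that is expressed from 1 parental copy in many tissues (probe at hg19 chr11:2904903-2904962), read 4.45, 3.13 and 3.19 in WT, 4.18, 2.92 and 2.82 in F53S and 3.39, 2.26 and 2.34 in K57N. On both slides the order was WT, F53S, K57N from high to low, but the slide 1 reading of K57N was above the slide 2 readings of WT. The difference between slides, -1.23 on the log2 scale, was larger than that between K57N and WT, -0.93. Without the slide term the SE was 0.51 and limma's adjusted p 0.535, and leaving out WT replicate 1 moved the difference to -0.50. With it the SE was 0.09 and the adjusted p 0.000651, the lowest of the 10 genes, for a 1.90-fold lower level. The difference with the slide term lay between -0.98 and -0.86 over the limma settings, and it passed without each of the 9 arrays.

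CDKN1A encodes p21, an inhibitor raised by p53 and by strong ERK signaling (probe at hg19 chr6:36652178-36652237). It read 0.32, -1.59 and -1.40 in WT, 0.29, -1.15 and -1.23 in F53S and -0.03, -0.54 and -0.51 in K57N. On slide 1 the K57N array was the lowest of the 3 lines, and on slide 2 both K57N arrays were the highest. The difference between K57N and WT was -0.35 on slide 1 and 0.97 on slide 2, where limma gave an adjusted p of 0.00436. Over both slides the difference was 0.53 ± 0.57 (log2, SE), with adjusted p of 0.865 without and 0.183 with the slide term. Without the slide term it was 1.13 when WT replicate 1 was left out and 0.18 when WT replicate 2 was.

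Of the INK4 inhibitors, CDKN2C was lower in K57N and CDKN2B did not pass, and the 2 were not tested against each other. CDKN2C encodes p18, which binds CDK4 and CDK6 (probe at hg19 chr1:51439963-51440022), and read 3.38, 3.09 and 3.09 in WT, 3.17, 2.90 and 2.89 in F53S and 2.23, 2.31 and 2.44 in K57N. All K57N arrays were below all arrays of the other lines. The log2 difference between K57N and WT was -0.86 ± 0.16 (SE, n = 3 per line), a 1.82-fold lower level. It was the only member to pass in limma without the slide term, with an adjusted p of 0.0346, and had 0.00292 with it. The pass without the slide term was lost on leaving out any of 8 of the 9 arrays (all but F53S replicate 1), whereas that with the slide term held without each of the 9 arrays.

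CDKN2B encodes p15, the INK4 inhibitor raised by TGF-β (probe at hg19 chr9:22008979-22009038). It read -2.98, -2.56 and -2.69 in WT, -2.65, -3.07 and -2.50 in F53S and -2.34, -2.65 and -2.71 in K57N. The lines overlapped on these values. K57N differed from WT by 0.18 ± 0.21 (log2, SE), with limma's adjusted p of 0.894 without and 0.545 with the slide term. The 95% interval with the slide term, from -0.26 to 0.62, leaves room for a difference as large as that of CCND1.

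Counted together for K57N against WT, 0 of the 10 members were called in limma without the slide term and 0 with it, against 2.11% and 4.28% of all probes tested. At an unadjusted p under 0.05 without the slide term the members were 3, against 13.1% of all probes, and the methods' t-test (named for the study as a whole and not for the arrays), not adjusted, also gave 3, against 13.5%. On the adjusted p alone, 1 of 10 passed without the slide term, against 2.55% of all probes. With it 5 of 10 passed, against 18.9% of all probes. Of these, 1 was higher (8.55% of all probes were) and 4 were lower (10.4% of all probes). K57N and WT arrays did not overlap for CCND2, CDKN1B and CDKN2C, 3 of 10, against 23.1% of all probes. Replacing the slide term by the replicate number gave the same 5 genes, against 14.4% of all probes. Over the 5 promoters of G1 progression (the cyclins, MYC and E2F1) the median log2 difference was 0.30, with CCND2 the only one below 0. That median was 0.07 on slide 1, 0.16 on slide 2 and 0.02 without K57N replicate 1, with MYC below 0 on slide 2 and E2F1 below 0 without that array. Over the 5 inhibitors it was -0.60, with CDKN1A and CDKN2B above 0, and -0.54 and -0.63 on the slides. The median of all probes tested was -0.05.

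No member passed the test between F53S and WT. The members' log2 differences from WT lay between -0.29 (CDKN1C) and 0.22 (CCND1), and limma gave an adjusted p of 0.9998 or more for each with the slide term. None of the 10 passed or was called without the slide term, where 0% of all probes passed. None did with it, where 0.00394% passed and the same 0.00394%, 1 probe, was called. At an unadjusted p under 0.05 the members were 0 without and 3 with the slide term, against 0.882% and 4.08% of all probes, and the methods' t-test, not adjusted, gave 1, against 1.45%. With the replicate number as a block 0% of all probes passed. The largest differences in F53S were those of CDKN1C, at -0.29 with a 95% interval from -0.50 to -0.08 with the slide term, and of CCND2, at -0.22 with an interval from -0.40 to -0.04. CDKN1B, by its brighter probe, was the only member whose F53S and WT arrays did not overlap, 1 of 10, against 3.25% of all probes. Within slide 2, F53S passed for 0.00787% of all probes and for no member, with 5 members and 5.82% of all probes at an unadjusted p under 0.05.

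Compared directly with F53S, K57N had lower CCND2, CDKN1B, CDKN1C and CDKN2C. The log2 difference was -0.55 for CCND2, with an adjusted p of 0.00573 in limma with the slide term. It was -0.41 for CDKN1B (adjusted p 0.0183, a pass lost on leaving out any F53S array or K57N replicate 2 or 3), -0.64 for CDKN1C (adjusted p 0.00532) and -0.66 for CDKN2C (adjusted p 0.0127, lost without F53S replicate 1). With no filter on dim probes none of the 4 passed, and with median scaling CCND2 and CDKN1B did not. CCND1 was 0.31 higher and did not pass, with an adjusted p of 0.0765 (0.0457 with normexp). In total 0 of 10 members passed without the slide term, against 1.31% of all probes, and 3 had an unadjusted p under 0.05, against 10.1%. With the slide term 4 of 10 passed, against 12.8% of all probes. All 4 were lower, as were 7.1% of all probes, and none was higher, against 5.72%. Called members were 0 without and 0 with the slide term, against 1.12% and 2.8% of all probes, and the methods' t-test, not adjusted, gave 3 members, against 10.2%. K57N and F53S arrays did not overlap for 3 of 10 members, again CCND2, CDKN1B and CDKN2C, against 18.6% of all probes. This comparison shares the K57N arrays with the one against WT. Mean levels in WT, F53S and K57N were 0.72, 0.94 and 1.25 for CCND1, and 3.19, 2.98 and 2.33 for CDKN2C. Among the 5 genes that passed between K57N and WT, F53S and WT did not pass on the adjusted p for any, although with the slide term the 95% interval of the difference excluded 0 for CCND2, CDKN1B and CDKN1C. For CDKN1B this held for the brighter probe only. The second probe gave -0.04 with an interval from -0.30 to 0.22.

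**Figure D2:**
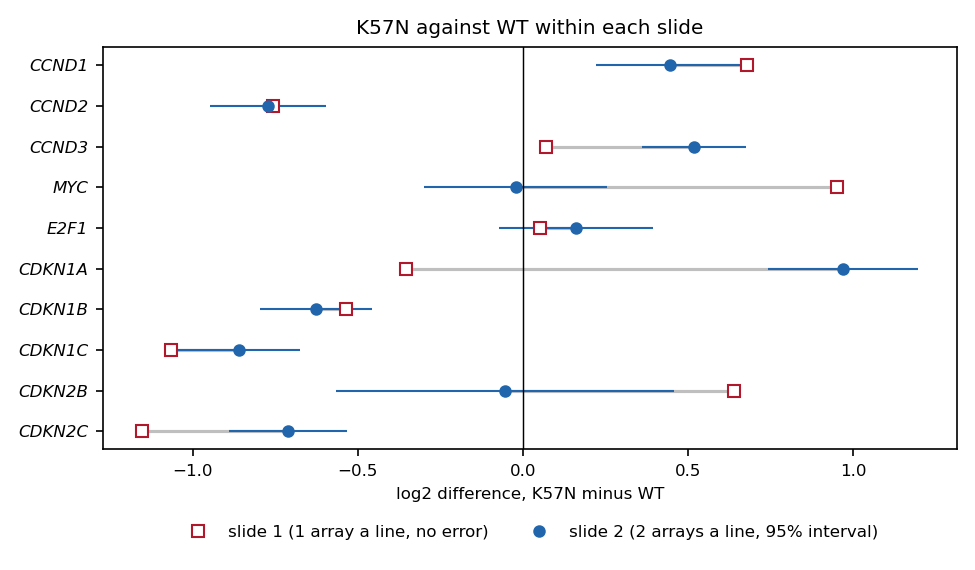
Log2 difference between K57N and WT (horizontal axis) on slide 1, with 1 array per line and no error (open squares), and on slide 2, with 2 arrays per line and a 95% interval (filled circles). CCND2 and CDKN1B gave nearly the same difference on both slides, while CDKN1A changed sign and MYC moved from 0.95 to -0.02.

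The difference between K57N and WT was set against itself between the slides. CCND2 gave -0.76 on slide 1 and -0.77 on slide 2, CDKN1B -0.54 and -0.63, CDKN1C -1.07 and -0.86, CDKN2C -1.16 and -0.71, and CCND1 0.68 and 0.45. Each of these 5 kept its direction on both slides. In a limma fit of the difference on slide 2 less that on slide 1, CDKN1A (1.32 ± 0.15, adjusted p 0.0268) and MYC (-0.97 ± 0.18, adjusted p 0.0391) passed, 2 of 10 members against 13.8% of all probes. For K57N against F53S, CDKN1A (0.99, adjusted p 0.0231) and CCND3 (0.64, adjusted p 0.0241) passed, against 23.6% of all probes. For F53S against WT no member passed, against 0.114% of all probes, and none had an unadjusted p under 0.05. In this fit all of the spread came from slide 2, and the single slide 1 arrays were assumed to vary like those, which could not be checked. The dimmer signals of slide 1, given above, went with these differences, and their part in them was not tested. Within slide 2 alone, 7 of 10 members passed for K57N against WT, against 21.9% of all probes, CCND3 and CDKN1A being added to the 5 named. For K57N against F53S on that slide 6 of 10 passed, against 14.6% of all probes.

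CCND1, CDKN1B, MYC and E2F1 were printed 10 times on each array. The median SD of the log2 signal among repeat spots of an array was 0.05 for CCND1, 0.07 for CDKN1B, 0.04 for E2F1 and 0.05 for MYC. Between the 3 arrays of a line, each the mean of its spots, the SD was 0.34 to 0.49 for CCND1, 0.31 to 0.48 for E2F1 and 0.09 to 0.49 for MYC. For CDKN1B it was 0.08 in WT, 0.05 in F53S and 0.04 in K57N.

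The wider cell cycle machinery was described with 12 lists of 152 genes in all, some of them members, and all 152 were tested. For K57N against WT, 2 of the 152 passed without the slide term, where 2.55% of all probes did, and 32 with it, where 18.9% of all probes did. With the replicate number as a block 25 passed, against 14.4% of all probes, while for F53S against WT 0 passed in either test. The only gene called, 1 of the 152, was CCNA1, in K57N against WT and against F53S. Of all probes, 2.11% without and 4.28% with the slide term were called against WT, and 1.12% and 2.8% against F53S. CCNA1 encodes cyclin A1, a cyclin mainly of germ cells that pairs with CDK2 and CDK1. It read -4.13, -3.50 and -3.49 in WT, -3.46, -3.42 and -3.29 in F53S and -0.65, -0.59 and -0.65 in K57N, so that all K57N arrays lay above all others. The K57N level was 3.08 ± 0.20 above WT on the log2 scale (SE), 8.44-fold, with an adjusted p in limma of 0.000283 without the slide term and 1.7e-05 with it. CCNA1 was above background on 8 of 9 arrays, the exception being WT replicate 1, the lowest reading. On slide 2, where all arrays were above background, the difference was 2.88.

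**Figure D3:**
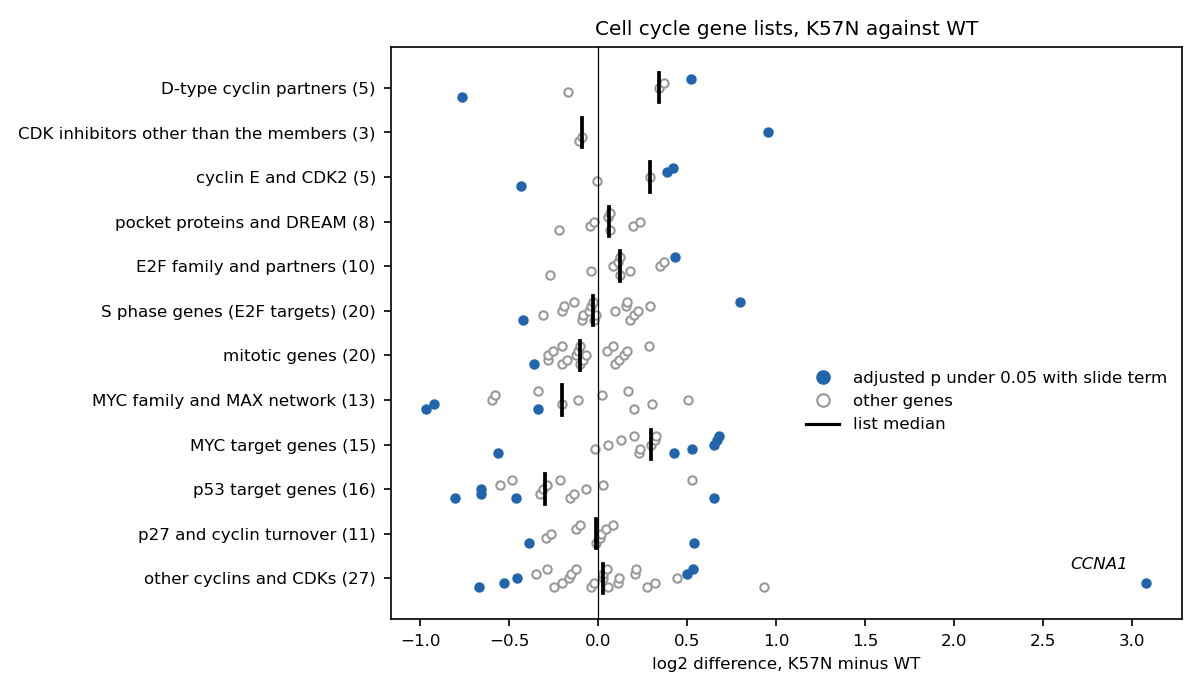
Log2 difference between K57N and WT (horizontal axis) for the genes of 12 cell cycle lists, with the number of genes in brackets, filled points for an adjusted p under 0.05 with the slide term and black bars at list medians. List medians lay between -0.30 (p53 targets) and 0.34 (D-type cyclin partners), and CCNA1 alone exceeded 2-fold among the genes that passed.

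The genes named from here on were chosen after their values were seen, and counts are those with the slide term, to be set beside the 8.55% of all probes that were higher and the 10.4% that were lower in K57N than in WT. Of the 32 genes, CCNE2, CDK3, MCM5, CENPA, MLXIP, POLR1B and CDK18 no longer passed with the replicate number as a block. Among 20 S phase genes, which E2F factors switch on, 1 was higher and 1 lower, with a median log2 difference of -0.03. That median was -0.16 on slide 1 and 0.06 on slide 2. The higher one was RRM2, a subunit of the enzyme that makes deoxynucleotides, at 0.80 ± 0.14 (SE), which also passed without the slide term (adjusted p in limma 0.0242). The lower one was MCM5, of the helicase that opens replication origins, at -0.42. Of 20 mitotic genes, 0 were higher and 1 (CENPA, the centromeric histone) was lower, with a median of -0.10. Of 8 pocket protein and DREAM genes none passed in either direction, with a median of 0.06, and of 10 E2F genes and partners only E2F6, a repressor of the family, passed as higher, at 0.43.

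Among 5 genes of cyclin E and CDK2, CCNE2 and CDC25A (the phosphatase that activates CDK2) were higher, at 0.42 and 0.38, and CDK3 was lower, at -0.44. The other CDK inhibitors were CDKN2A, CDKN2D and CDKN3, of which CDKN2D was higher at 0.95 ± 0.13 (SE with the slide term, adjusted p in limma 0.00344). CDKN2D encodes p19, an INK4 inhibitor, and its direction was opposite to that of CDKN2C. Of 11 genes of p27 and cyclin turnover, SKP2, the ubiquitin ligase subunit that marks p27 for destruction, was higher at 0.54, and FBXW7, which does so for cyclin E and MYC, was lower at -0.39. No other gene of that list passed, so 18.2% of it did, close to the 18.9% of all probes. Of the 5 genes of D-type cyclins and their partners, CCND1 was higher and CCND2 lower, and the kinases CDK4 and CDK6, at -0.17 and 0.34, did not pass. The median of these 5 was 0.34 over all arrays, but 0.07 on slide 1 and 0.20 on slide 2.

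MYC itself did not pass, while some of its targets and partners did. Of 15 MYC targets, 5 were higher and 1 lower, with a median log2 difference of 0.30 (0.48 on slide 1 and 0.23 on slide 2). The 5 were NOP16, PPAN, RRP9, RRP12 and POLR1B, all of ribosome production, at 0.42 to 0.68, and the lower one was TERT, of telomerase, at -0.56. Of 13 genes of the MYC family and MAX network, 0 were higher and 3 lower, with a median of -0.20 (-0.41 on slide 1 and -0.20 on slide 2). These were MXD3 and MXD4, partners of MAX that oppose MYC, at -0.97 and -0.92, and MLXIP, at -0.34. Of 16 p53 targets, 1 was higher, GADD45A at 0.65, and 4 were lower, SESN1, BTG2, XPC and BBC3, at -0.46 to -0.81, with a median of -0.30 on both slides together, -0.58 on slide 1 and -0.03 on slide 2. CDKN1A, itself in this list, did not pass. Of 27 other cyclins and CDKs, 3 were higher (CCNA1, CCNH and CDK7) and 3 lower (CCNG2, CCNI and CDK18). CCNH and CDK7 belong to the same CDK-activating kinase, and they were higher by 0.50 and 0.53.

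For K57N against F53S, 1 of the 152 genes passed without the slide term, where 1.31% of all probes did, and 24 with it, where 12.8% did. With the replicate number as a block 13 passed, against 8.45% of all probes. Beside 5.72% of all probes higher and 7.1% lower with the slide term, the MYC targets counted 3 higher and 1 lower and the p53 targets 1 higher and 4 lower (1 and 3 with the block). The MYC family and MAX network counted 1 higher and 3 lower, and 0 and 1 with the block. For F53S against WT the list medians lay between -0.06 and 0.09.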

How the data were processed

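RNA of 9 samples was hybridized with 1 dye to Agilent human arrays, 3 for each line. The files that the authors deposited per array hold the output of Agilent Feature Extraction 10.10.1.1, of which the processed signal was used, an intensity after subtraction of background and without scaling between arrays. The authors also deposited a table of log2 values, which equal the log2 processed signal less 1 constant per array within 0.02 for 100% of the 50380 probes complete on all arrays, and this table was used as an alternative. Which scaling its constants stand for is not given in the sources used here.

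Here each array was set on the log2 scale relative to its 75th percentile over noncontrol spots. Spots marked as uneven or outlying and control spots were left out, and repeat spots of a probe were averaged. Dim probes can carry background subtraction error, so a probe was tested only if well above background throughout the 3 arrays of 1 line or more. The fits used limma 3.58.1 in R 4.3.3, with 1 mean per line over 9 arrays and p adjusted by Benjamini-Hochberg over the 25409 probes tested, and tables and plots used Python 3.11.15. The number of arrays limits the precision. The fits were tested on simulated data in which the change in K57N was the same on both slides. Differences between lines that vary by slide, as found above, were not simulated.

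Arrays of the same replicate number deviated together from their line means (r between 0.43 and 0.92 for the 9 pairs), in part because the numbers follow the slides, and within slide 2 r was between 0.04 and 0.26. Every member is named. Genes of the lists were to be named if called in either fit, at most 5 per list and comparison. The members and lists were chosen with earlier results of these data known. The alternatives were normexp (offset 50), quantile and median scaling, other filters, averaging the probes of a gene, fits of only the 2 lines compared, a slide term, a replicate block, each slide alone, the deposited table, the methods' t-test, which they name for the study as a whole, and leaving out each array. The count of members by adjusted p alone, the slide term joined to the other choices and the test between slides were added after seeing the data. Promoter letters came from RefSeq (GRCh38.p14), and probe positions from the array's annotation on hg19.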

Additional observations from a re-analysis of the deposited data

Results flagged for a closer look

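The differences of K57N from the other lines themselves differed between slides for 3 members, in a limma fit of the difference on slide 2 less that on slide 1. For CDKN1A this was 1.32 on the log2 scale against WT and 0.99 against F53S, with K57N the lowest line on slide 1 and the highest on slide 2. For MYC it was -0.97 against WT, and for CCND3 it was 0.64 against F53S. Against WT 2 of 10 members passed, where 13.8% of all probes did, and against F53S 2 of 10, where 23.6% did. Each line had 1 array on slide 1, assumed to vary like those of slide 2, so these rest on single arrays there, and what underlies them was not tested.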

How the results depend on the processing

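No member was called, at over 2-fold and an adjusted p under 0.05, in any of the 3 comparisons under any alternative run. The number of members with an adjusted p under 0.05 for K57N against WT was 1, and became 5 with the slide term, 5 with the replicate block, 7 within slide 2 and 3 with the methods' t-test without adjustment. It was 0 with median scaling, with no filter on dim probes and with 2 lines at a time, and 0 to 1 on leaving out each array. The adjusted t-test also passed 1 gene, which was CDKN1B and not CDKN2C. For K57N against F53S it was 0, and became 4 with the slide term, 4 with the replicate block, 6 within slide 2 and 3 with the methods' t-test without adjustment. For F53S against WT it was 0, and 1 with that t-test. With the slide term, the count for K57N against WT was 5, and 5 to 7 on leaving out each array. CCND3 and CDKN1A were added without K57N replicate 1, and CCND3 with quantile normalization, where the count was 6. CCND1 lost its pass with median scaling and with no filter, with adjusted p over the limma settings between 0.00451 and 0.0726, and the other 4 genes passed in all 17 settings. For K57N against F53S the count with the slide term was 4, and became 2 with median scaling, 0 with no filter, 3 with 2 lines at a time, 5 with normexp (CCND1 added) and 2 to 6 on leaving out each array. It was 2 without F53S replicate 1, where CDKN1B and CDKN2C were lost, and 6 without K57N replicate 1. CDKN1B passed there in 9 of 17 settings and was lost on leaving out 5 of 9 arrays (each F53S array and K57N replicates 2 and 3) and with 2 lines at a time. The cause was not tested.

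Of 690 log2 differences recomputed for the 30 pairs of member and comparison, 33 changed sign. Many of the 690 could not do so. The slide term, the replicate block, the t-tests, fits of only the 2 lines compared and leaving out arrays of the third line leave the difference itself unchanged. The only difference that passed in the test without a slide term, CDKN2C in K57N against WT, kept its sign. On leaving out each array with no slide term, F53S against WT ran from -0.058 to 0.46 for CCND1, -0.089 to 0.39 for CCND3, -0.30 to 0.80 for CDKN1A, -0.72 to 0.14 for CDKN1C, -0.12 to 0.17 for CDKN2B, -0.25 to 0.24 for E2F1 and -0.078 to 0.058 for MYC. With the slide term, over the limma settings, it kept its sign for CCND1 (0.16 to 0.29), CCND3 (0.044 to 0.25), CDKN1A (0.038 to 0.47) and CDKN1C (-0.33 to -0.25). It still crossed 0 for CDKN2B (-0.19 to 0.18), E2F1 (-0.055 to 0.08) and MYC (-0.24 to 0.12). E2F1 ran, again with no slide term, from -0.076 to 0.38 for K57N against F53S and from -0.055 to 0.34 for K57N against WT. With the term it ran from 0.052 to 0.18 and from 0.074 to 0.19. Within slide 1, the differences were -0.35 for CDKN1A in K57N against WT, -0.034 for CDKN1A and 0.15 for MYC in F53S against WT, and -0.24 for CCND3, -0.088 for E2F1 and -0.32 for CDKN1A in K57N against F53S. Within slide 2 they were -0.022 for MYC and -0.054 for CDKN2B in K57N against WT, and -0.037 for E2F1 and -0.16 for CDKN2B in F53S against WT. In F53S against WT, E2F1 was -0.0043 with median scaling and -0.016 with quantile normalization, and CDKN2B was -0.023 with median scaling and -0.0084 with normexp.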
